A study of Drosophila melanogaster with 3 samples.

Results

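The genes that encode the protein subunits of the cytosolic ribosome were examined for binding of the Hox protein Antp in Drosophila melanogaster embryos. The set was every protein-coding gene whose symbol starts with RpL or RpS and a digit, or with RpLP and a digit, together with sta, which encodes the small-subunit protein SA; names that end in -like were left out. This gave 88 of 13968 protein-coding genes, 50 of the large and 38 of the small subunit. Chromatin came from 1 group of animals, mixed-sex whole embryos aged 0 to 24 h of the AntP-MiMIC-GFP strain, in which an eGFP exon placed in an intron of Antp yields an Antp-eGFP fusion protein. The immunoprecipitation was made with an antibody to GFP and repeated in 3 biological replicates; DNA was sheared to between 200 and 800 bp. All cell types of the embryo were pooled, and embryos without the tag were not analysed here, so every value below is a position and strength of a peak in this 1 group.

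Ribosomal proteins are made in all growing cells, and in Drosophila most heterozygous mutations of their genes give the Minute phenotype of slow development and short thin bristles. Transcription of these genes in flies commonly starts in a stretch of pyrimidines, the polypyrimidine or TCT initiator, instead of the standard initiator. DREF, which binds the DNA replication-related element (DRE), and M1BP, which binds core promoter motif 1, are known to act at many of these promoters. Antp is best known for setting the identity of thoracic segments, where it binds short sites with a TAAT core. Which genes it occupies was the question that the ChIP-seq addressed.

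The promoters that carried the strongest peaks are shown for 7 genes, as 120 bases upstream and 30 bases from an annotated transcription start site (TSS) on, 5′ to 3′ on the strand of the gene, in dm6 coordinates. For RpS27, RpL7 and RpS29 the TSS shown is not the annotated TSS nearest to the summit, from which distances are given below. RpL32, RpL23A, RpS27, RpL34b and RpS20 held the 5 strongest peaks of the set; RpL7 and RpS29 are shown because their windows hold a match to motif 1 and to the DRE. Capitals mark the initiator (a pair of pyrimidines, CTTT, a pair of pyrimidines) where it lies within 10 bp of the TSS, the DRE (TATCGATA) and motif 1 (GGTCACAC, on either strand).
RpL32, chr3R:30046132-30046281, minus strand: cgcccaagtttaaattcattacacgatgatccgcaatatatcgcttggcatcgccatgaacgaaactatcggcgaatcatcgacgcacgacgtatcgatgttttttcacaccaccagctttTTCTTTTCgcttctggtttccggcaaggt
RpL23A, chr3L:1668625-1668774, minus strand: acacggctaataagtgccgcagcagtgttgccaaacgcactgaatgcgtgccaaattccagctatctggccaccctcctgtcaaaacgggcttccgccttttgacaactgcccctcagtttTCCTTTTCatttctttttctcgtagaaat
RpS27, chr3R:25247443-25247592, minus strand: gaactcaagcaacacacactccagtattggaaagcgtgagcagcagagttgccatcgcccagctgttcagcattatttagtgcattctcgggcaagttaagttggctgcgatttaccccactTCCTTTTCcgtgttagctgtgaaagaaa
RpL34b, chr3R:9401197-9401346, minus strand: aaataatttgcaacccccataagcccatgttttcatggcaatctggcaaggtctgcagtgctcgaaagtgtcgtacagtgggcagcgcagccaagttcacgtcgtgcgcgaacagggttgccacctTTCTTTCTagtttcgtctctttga
RpS20, chr3R:20822061-20822210, plus strand: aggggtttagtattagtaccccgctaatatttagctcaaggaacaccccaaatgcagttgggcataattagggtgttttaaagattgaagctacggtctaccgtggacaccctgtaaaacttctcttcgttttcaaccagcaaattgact
RpL7, chr2L:10200980-10201129, plus strand: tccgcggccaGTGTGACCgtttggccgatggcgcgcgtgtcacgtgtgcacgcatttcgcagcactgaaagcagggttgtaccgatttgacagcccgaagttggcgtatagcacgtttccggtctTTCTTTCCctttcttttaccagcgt
RpS29, chr3R:9777977-9778126, plus strand: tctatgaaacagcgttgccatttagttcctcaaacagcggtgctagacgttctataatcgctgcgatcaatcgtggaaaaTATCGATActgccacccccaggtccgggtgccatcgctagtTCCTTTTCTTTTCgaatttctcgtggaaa

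Promoters with no summit within 500 bp of a TSS of the gene in the list of 30000 entries called on the pooled replicates are shown for comparison. They belong to RpL10, RpS3A, RpS9, RpL15 and RpS13, with capitals as above. These are not genes without any entry. Each had an entry within that distance in the list of at least 1 replicate, and RpS13 is counted below as bound through a peak outside its own promoter.
RpL10, chr3L:23095442-23095591, minus strand: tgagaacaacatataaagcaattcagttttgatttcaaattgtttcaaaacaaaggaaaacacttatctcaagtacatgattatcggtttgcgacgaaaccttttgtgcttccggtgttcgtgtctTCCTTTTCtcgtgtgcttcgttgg
RpS3A, chr4:67178-67327, minus strand: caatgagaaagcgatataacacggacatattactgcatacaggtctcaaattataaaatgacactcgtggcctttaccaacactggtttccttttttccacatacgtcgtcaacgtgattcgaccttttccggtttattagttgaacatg
RpS9, chr3L:9511502-9511651, minus strand: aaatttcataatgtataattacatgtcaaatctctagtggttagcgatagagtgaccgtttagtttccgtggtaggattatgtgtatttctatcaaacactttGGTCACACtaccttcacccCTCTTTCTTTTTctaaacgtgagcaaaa
RpL15, chr3L:27267135-27267284, plus strand: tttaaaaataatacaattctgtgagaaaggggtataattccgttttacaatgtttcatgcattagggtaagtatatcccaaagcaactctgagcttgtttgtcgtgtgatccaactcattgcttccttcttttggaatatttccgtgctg
RpS13, chr2L:8364567-8364716, minus strand: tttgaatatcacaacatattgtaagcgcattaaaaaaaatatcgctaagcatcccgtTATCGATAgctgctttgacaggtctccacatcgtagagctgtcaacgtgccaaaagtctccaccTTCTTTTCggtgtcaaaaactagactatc
RpL10, RpS9 and RpS13 hold an initiator, RpS9 also a motif 1 and RpS13 a DRE. RpS3A and RpL15 hold no marked element, and neither does RpS20, which had a strong peak.

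Peaks were counted from the list that the authors kept after testing reproducibility between replicates by the irreproducible discovery rate (IDR), which holds 4351 peaks. A summit lay in the gene span or within 1 kb of it for 59 of the 88 ribosomal protein genes (67.0%). The same held for 30 of 73 mitochondrial ribosomal protein genes (41.1%), 20 of 44 translation initiation factor genes (45.5%) and 30.0% of all protein-coding genes. A summit within 500 bp of an annotated TSS of the gene, called an own-promoter summit here, was found at 52 ribosomal protein genes (59.1%), against 27 mitochondrial ribosomal protein genes (37.0%), 15 initiation factor genes (34.1%) and 20.8% of all protein-coding genes. Ribosomal protein genes are short, with spans of 304 to 4677 bp and a median of 1344 bp, against 2164 bp for all protein-coding genes. With 1 group of samples no test of a difference was made; these shares are descriptions of 1 peak list.

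Most of the counted genes held their summit at the promoter and not in the gene body. Without the 1 kb extension, 17 ribosomal protein genes held a summit (19.3%), against 11.8% of all protein-coding genes. Of the 52 own-promoter peaks, 17 had their summit inside the span and the others lay upstream of it. The TSS nearest to a summit, among all annotated genes and at any distance, belonged to 44 of the 88 ribosomal protein genes, against 12 mitochondrial ribosomal protein genes (16.4%), 12 initiation factor genes (27.3%) and 20.5% of all protein-coding genes. When an own-promoter summit had also to be nearest to the gene's own TSS, the count of ribosomal protein genes was again 44, against 15.1% of all protein-coding genes.

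**Figure D1:**
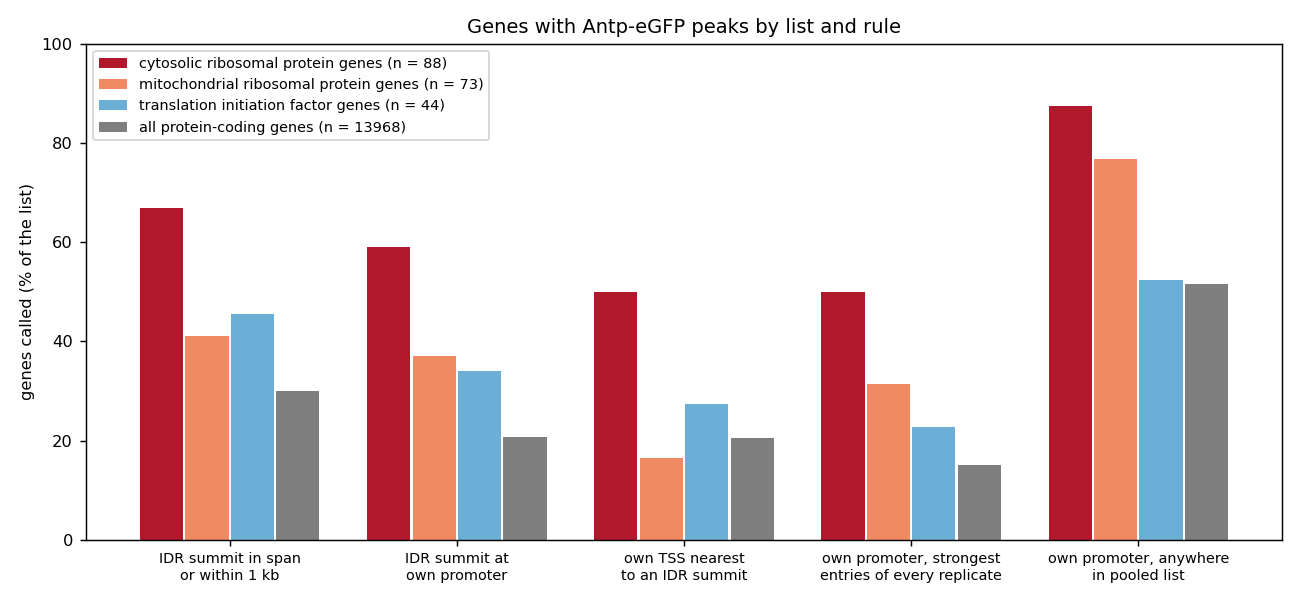
Share of genes called (%, vertical axis) under 5 rules (horizontal axis) for cytosolic ribosomal protein genes, mitochondrial ribosomal protein genes, translation initiation factor genes and all protein-coding genes; each bar is 1 share of a fixed list and has no error bar. The ribosomal protein genes have the highest bar under each rule, and reach 87.5% in the pooled list.

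The 3 replicates were compared over equal numbers of entries, the 4351 strongest of each replicate's own list. An own-promoter entry was present at 51 ribosomal protein genes in replicate 1, against 20.0% of all protein-coding genes. In replicate 2 there were 51, against 20.6% of all protein-coding genes, and in replicate 3 there were 59, against 20.2%. The mean share was 61.0% ± 5.25 for ribosomal protein genes and 20.3% ± 0.327 for all protein-coding genes (SD, n = 3). Replicate 3 thus gave the highest count for the set while the count over all genes differed little between replicates. Such an entry was present in every replicate at 44 of 88 ribosomal protein genes, against 23 of 73 mitochondrial ribosomal protein genes (31.5%), 10 of 44 initiation factor genes (22.7%) and 15.1% of all protein-coding genes.

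Peak strength is the signal value that the authors' caller gave each peak, which can be compared only within 1 list. Own-promoter IDR peaks of ribosomal protein genes had a median signal of 276, with a range of 107 to 937. The median was 204 for mitochondrial ribosomal protein genes, 198 for initiation factor genes and 189 over the 2905 protein-coding genes with such a peak. By rank within the IDR list, where 1 is the strongest, the median was 1098.5 for ribosomal protein genes and 1905 for all. Ranks of 1087 or better, the top 25% of the list, were held by 25 of the 52 (48.1%), against 29.6% over all protein-coding genes. The set was therefore shifted to stronger peaks but did not hold the strongest of the list, which reached a signal of 4660.

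**Figure D2:**
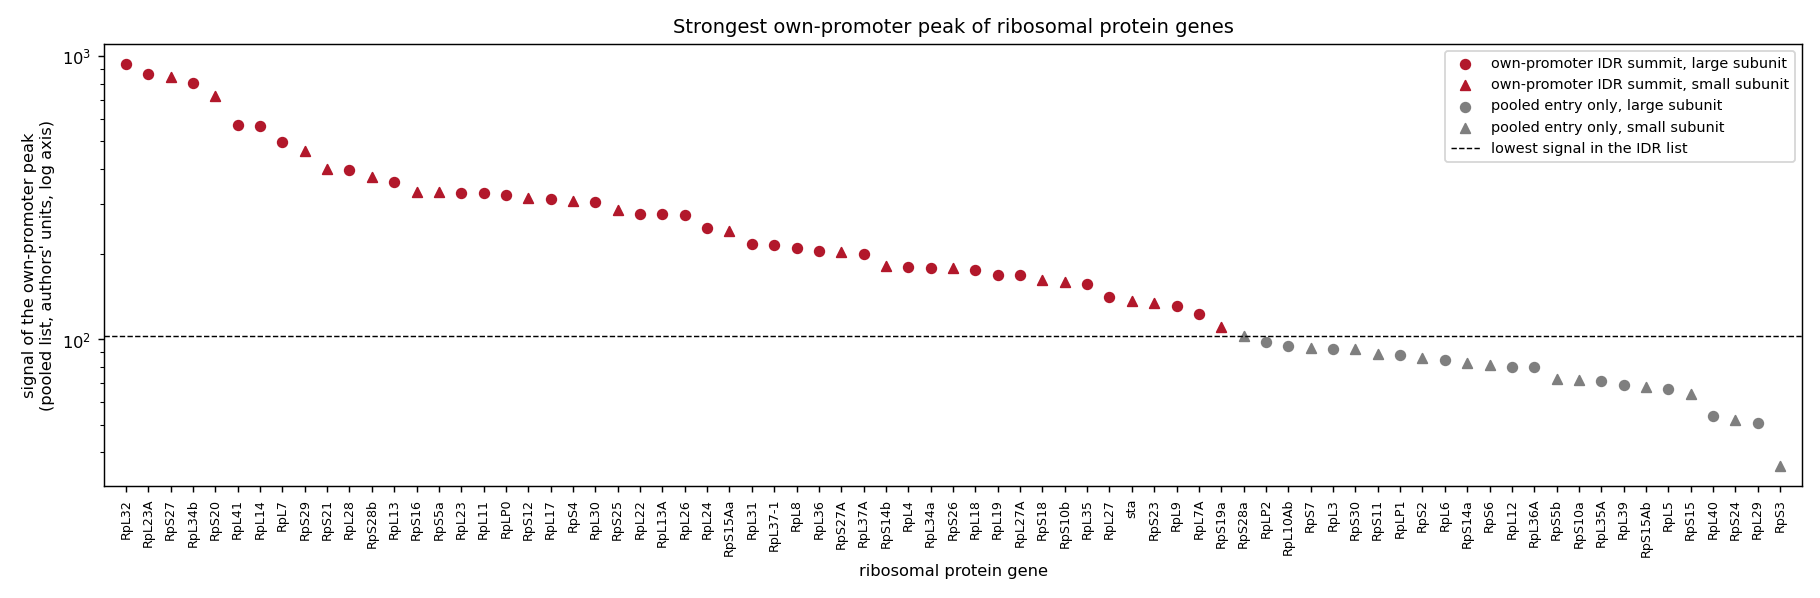
Signal of the strongest own-promoter peak in the pooled list (vertical log axis, the authors' units) for 75 of the 77 ribosomal protein genes with such an entry (horizontal axis), with red for genes with an own-promoter IDR summit, grey for the others, circles for the large and triangles for the small subunit. Signals range from 937 at RpL32 to 35.7 at RpS3, and the dashed line marks the lowest IDR signal of 103.

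The strongest peak of the set lay at RpL32, a large-subunit gene widely used as a reference in fly expression assays. The peak at chr3R:30046105-30046533 had its summit outside the gene span, 167 bp upstream of the RpL32 TSS and 142 bp from that of CG7943, the nearest TSS. This peak had rank 85 in replicate 1, 86 in replicate 2 and 93 in replicate 3. The 3 ranks nearly coincide. RpL23A, also of the large subunit, had a peak at chr3L:1668605-1668905 with the summit 96 bp upstream of its TSS and ranks of 96, 178 and 83 in replicates 1, 2 and 3. RpS27, a zinc-finger protein of the small subunit, had a peak at chr3R:25247380-25247695 with the summit 17 bp upstream and ranks of 97, 191 and 82. For both genes replicate 2 gave the weakest rank. RpL34b had its strongest peak at chr3R:9401148-9401549, with the summit 76 bp upstream and ranks of 93, 131 and 159, and RpS20, with a summit 160 bp upstream and a signal of 722, had ranks of 207, 100 and 222.

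A second tier of peaks had signals of 396 to 572. RpL41, the smallest protein of the ribosome, had a signal of 572 and a summit 99 bp upstream of its TSS. RpL14 had a signal of 568, and its summit lay 64 bp upstream of its TSS and 63 bp from that of Nelf-E, a subunit of the negative elongation factor. RpL7 had a signal of 499, with its summit 21 bp downstream of its nearest annotated TSS. The same summit lay upstream of the TSS whose sequence is shown above, at -82 bp from the nearest initiator. The order of strength within this tier was not the same in all replicates. RpS29 had a signal of 463, RpS21 of 398 and RpL28 of 396. RpS21 had its summit at its annotated TSS itself.

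A further 23 genes had own-promoter signals of 201 to 374, and 17 had signals of 107 to 182. RpS12, known from Drosophila for its part in the competition between cells that differ in ribosomal protein gene dose, had a signal of 316, with the summit 53 bp upstream. RpL22, which in Drosophila carries a long histone-like extension, had a signal of 278, with the summit 57 bp upstream. RpL11 had a signal of 328 and RpL13A of 277. RpL13A ranked 1051 in replicate 1, 1949 in replicate 2 and 518 in replicate 3, whereas RpL17, with a signal of 312, ranked 858, 963 and 840. Peaks of near-equal signal thus differed in how far the replicates spread.

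At the lower end of the IDR list, RpL7A had a signal of 123 and RpS19a of 111. Among the genes just below it were RpS28a with a pooled signal of 103, RpLP2 with 98.3, RpL10Ab with 94.6, RpS7 with 93.1 and RpL3 with 92.8. The IDR list is the 4351 strongest entries of the pooled list, and its lowest signal was 103, so these genes differ by little across the threshold. RpL3, which reaches toward the peptidyl transferase centre, was among the strongest 4351 entries in each replicate, with ranks of 4073, 3669 and 3138 in replicates 1, 2 and 3. Its pooled rank was nonetheless 4965, outside the IDR list.

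Both subunits took part. Own-promoter IDR summits were found at 32 of 50 large-subunit genes (64.0%) and 20 of 38 small-subunit genes (52.6%), and the medians of signal were 276 and 265. In the strongest entries of every replicate the counts were 29 (58.0%) and 15 (39.5%). In replicate 1 alone the counts were 33 (66.0%) and 18 (47.4%). The difference was smaller in replicate 3, with 35 (70.0%) and 24 (63.2%). The large subunit was not ahead under every rule. A summit in the span or within 1 kb was found at 33 large-subunit genes (66.0%) and 26 small-subunit genes (68.4%). The gene's own TSS was nearest to a summit at 25 of 50 and 19 of 38. In the pooled list, own-promoter entries were present at 44 (88.0%) and 33 (86.8%). The ribosomal stalk, which recruits translation factors, is built from RpLP0, RpLP1 and RpLP2, and its genes were not alike. RpLP0 had an own-promoter peak with a signal of 323, 38 bp upstream of its nearest TSS. RpLP1 had only a pooled entry there, with a signal of 88.3, and RpLP2 one of 98.3.

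Summits sat close to the TSS. The median own-promoter summit of ribosomal protein genes lay 44 bp upstream (at -44.0 bp, quartiles -78.75 and -8.0 bp), against -150.0 bp for mitochondrial ribosomal protein genes, -73.0 bp for initiation factor genes and -100.0 bp for all protein-coding genes. A distance of at most 100 bp was found for 43 of the 52 (82.7%), against 40.7% of mitochondrial ribosomal protein genes, 60.0% of initiation factor genes and 45.0% of all protein-coding genes. The summit was at or upstream of the gene's nearest TSS in 48 genes and downstream in 4, namely RpL7, RpS4, sta and RpL36. This side of the TSS was common in general, with 2501 of 2905 summits at or upstream over all protein-coding genes. It held for 24 of 27 mitochondrial ribosomal protein genes and 14 of 15 initiation factor genes. A close position was seen without the IDR list too. Over every own-promoter entry of each replicate list, 75.7%, 71.1% and 79.0% of entries of ribosomal protein genes lay within 100 bp in replicates 1, 2 and 3, against 38.9%, 38.6% and 38.9% over all protein-coding genes.

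**Figure D3:**
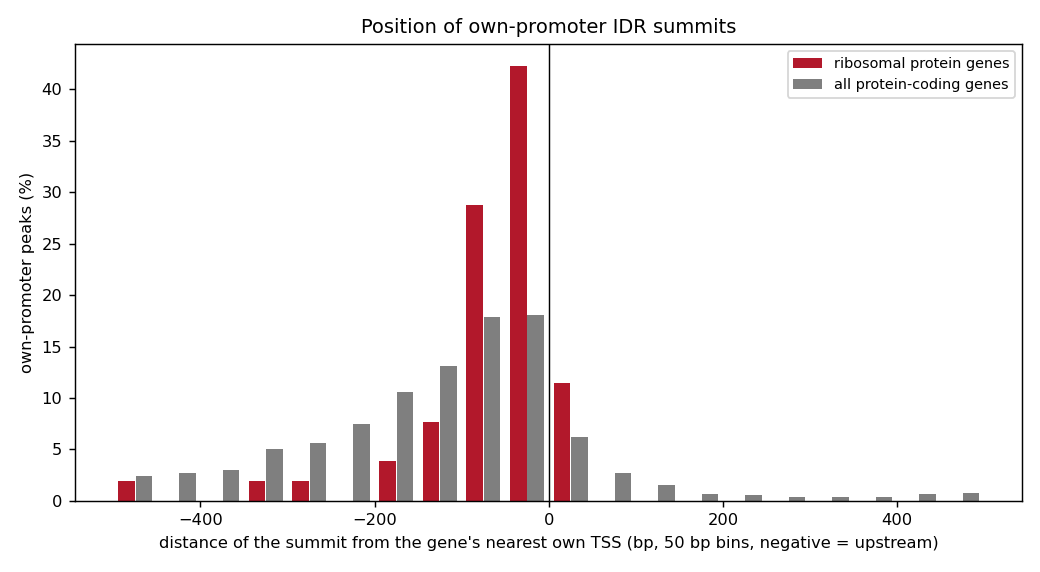
Share of own-promoter IDR peaks (%, vertical axis) by the distance of the summit from the nearest TSS of the gene (horizontal axis, bp, in bins of 50 bp, negative upstream) for 52 ribosomal protein genes and 2905 protein-coding genes. The bin from -50 to 0 bp holds 42.3% of the ribosomal protein peaks and 18.1% of all, and no ribosomal protein peak lies more than 50 bp downstream.

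The initiator gave a second reference point. A match within 10 bp of the 5′ end of the gene was found at 41 ribosomal protein genes (46.6%), against 0 mitochondrial ribosomal protein genes, 2 initiation factor genes (4.55%) and 1.05% of all protein-coding genes. When the TSS of any annotated transcript could serve, the count was 69 (78.4%), against 1.74% of all protein-coding genes. Of the 52 genes with an own-promoter IDR summit, 44 had such an initiator, and in each of the 44 the summit lay upstream of the nearest one. The median offset was -61.5 bp (quartiles -82.5 and -35.75 bp), and 37 summits lay within 100 bp. Offsets from the initiator were not computed for genes outside the set. Over all protein-coding genes, 2501 of 2905 own-promoter summits lay at or upstream of the gene's nearest TSS, so an upstream position is common without regard to the initiator. Whether genes with an initiator were bound more often depended on the TSS used. Own-promoter summits were found at 22 of 41 genes with an initiator at the 5′ end (53.7%) and at 30 of 47 genes without one (63.8%). With the TSS of any transcript they were found at 44 of 69 genes with an initiator (63.8%) and at 8 of 19 without one (42.1%), the opposite direction. Over all protein-coding genes the shares by the 5′ end were 32.0% with and 20.7% without an initiator. By the TSS of any transcript they were 42.8% and 20.4%. These groups include the set itself. Of the 147 protein-coding genes with an initiator at the 5′ end, 41 were ribosomal protein genes, and of the 47 with a summit, 22 were. By any transcript the set made up 69 of 243 genes and 44 of 104 with a summit.

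DRE and motif 1 were searched on both strands from 250 bp upstream to 50 bp downstream of the 5′ end of the gene. The DRE was matched at 26 ribosomal protein genes (29.5%), against 9.36% of all protein-coding genes, and motif 1 at 14 (15.9%), against 7.69%. Either motif was present at 37 (42.0%), against 22 mitochondrial ribosomal protein genes (30.1%), 16 initiation factor genes (36.4%) and 16.1% of all protein-coding genes. A share above that of all genes was thus not confined to cytosolic ribosomal protein genes. Matches to the pair cannot overlap each other. Among ribosomal protein genes, 59.5% of those with either motif and 58.8% of those without had an own-promoter summit. Over all protein-coding genes the shares were 31.9% with and 18.7% without either motif. A match describes letters in a window and does not show that the factor was bound.

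Sites of the kind that Hox proteins bind were searched as TAATTA or TAATTG, which differ in their last base, and as TAATGA or TAATGG, on both strands. In the promoter window they were matched at 56 ribosomal protein genes (63.6%), against 55.2% of all protein-coding genes. Within 100 bp of the own-promoter summit, however, 12 of the 52 ribosomal protein genes held a match (23.1%), against 39.2% of the 2905 protein-coding genes. Summits were counted once per gene here, so a summit shared by neighbouring genes counts for each. The median GC content of these windows was 44.3% for ribosomal protein genes and 38.8% for all, and its part in the lower share of these AT-rich motifs was not tested. The TATA box (TATAAA) followed the same direction, at 15.4% against 25.9%. DRE and motif 1 went the other way, with the DRE at 13 of 52 against 10.2% and motif 1 at 13.5% against 5.51%. The other motifs searched had lower shares around the summits of ribosomal protein genes as well, GAGA (GAGAG) with 9.62% against 21.1% and the E-box CAGCTG with 7.69% against 17.1%.

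**Figure D4:**
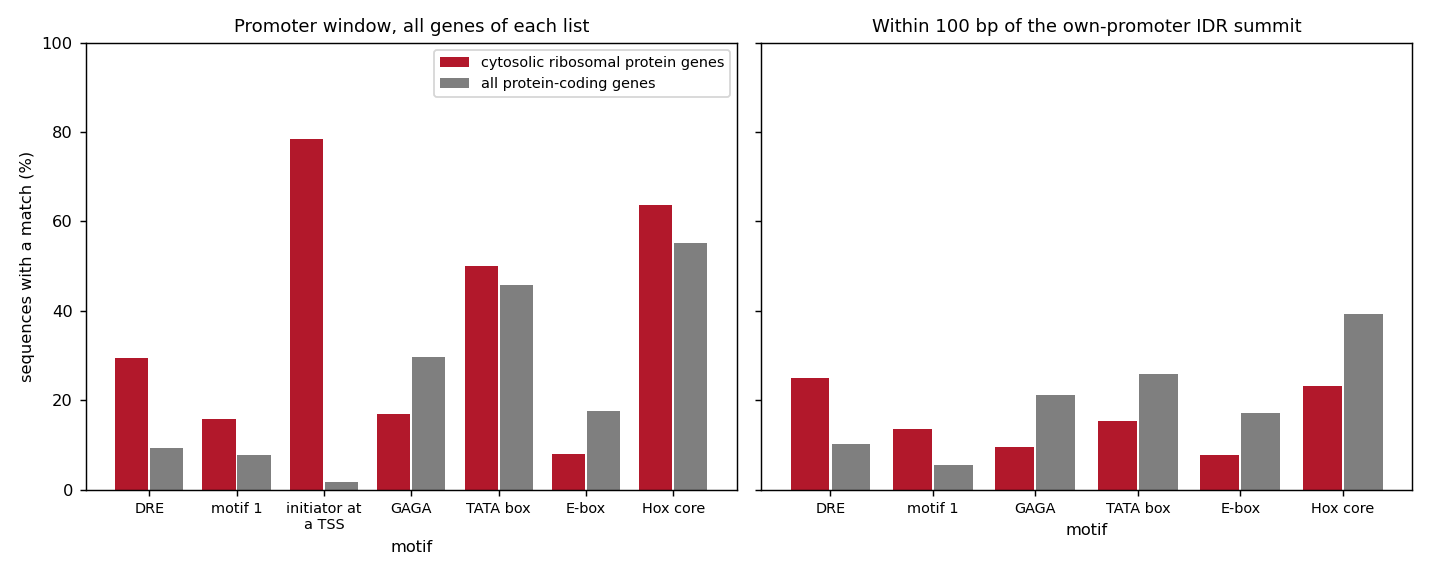
Share of sequences with a motif match (%, vertical axis) in promoter windows of 88 cytosolic ribosomal protein genes and 13968 protein-coding genes (left) and within 100 bp of own-promoter IDR summits, counted once per gene for 52 and 2905 genes (right). The initiator reaches 78.4% of ribosomal protein genes and 1.74% of all, and the Hox core falls below the level of all genes at the summits, with 23.1% against 39.2%.

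Ribosomal protein genes often share their promoter region with another gene. A TSS of another gene on the opposite strand within 500 bp upstream was annotated for 36 of the 88 (40.9%), against 72.6% of mitochondrial ribosomal protein genes, 40.9% of initiation factor genes and 28.3% of all protein-coding genes. Own-promoter summits were found at 26 of these 36 (72.2%) and at 26 of the other 52. Over all protein-coding genes the shares were 39.5% with and 13.4% without such a neighbour. Both groups of ribosomal protein genes were thus above all genes of the same arrangement. The median summit lay at -60.5 bp in genes with such a neighbour and at -34.0 bp in genes without.

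For 8 own-promoter peaks the TSS of another gene was nearer to the summit. Among them were RpL32, RpL14, RpL41, RpL13, RpL23, RpL34a and RpS19a. At the other 44 of the 52 genes an own-promoter summit was nearest to the gene's own TSS. The same held for 2105 of 2905 over all protein-coding genes and for 12 of 27 mitochondrial ribosomal protein genes. The summit at RpL13 lay 90 bp upstream of its TSS and 6 bp from that of Dref, which encodes the DRE-binding factor DREF itself. The peak at RpL41 was 83 bp from the TSS of NaCP60E, a sodium channel gene, and that at RpL23 was 233 bp from CG13531. The summit near RpS19a was 461 bp upstream of RpS19a and 19 bp from Rok, so its count for RpS19a rests on the limit of 500 bp. In these cases 1 peak cannot be given to 1 of the genes.

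The other 7 genes counted as bound had their summit outside their own promoter. The peak counted for RpS19b lay 898 bp upstream with a signal of 272, nearest to CG5854, and that for RpS13 lay nearest to CG7627 with a signal of 244. RpS14a was counted through the peak at the promoter of RpS14b, its near-identical tandem copy, with a signal of 182. RpS15Ab had its summit 15 bp from the TSS of CG12325 and RpS6, the target of S6 kinase, 15 bp from that of bys, with signals of 146 and 143. RpS15 and RpLP1 had peaks of 143 and 131 nearest to CG4927 and CG11885. None of the 7 had a TSS of its own nearest to the summit.

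In all, 73 IDR summits were counted in the set, of which 72 were distinct because RpS14a and RpS14b share one. RpL34b had 3 summits, and 12 genes had 2: RpL8, RpL17, RpL18, RpL24, RpL28, RpL31, RpL35, RpLP0, RpS15Aa, RpS23, RpS25 and RpS28b. The second summit was often at a neighbour. At RpL31 the stronger peak, with a signal of 326, lay 169 bp from the TSS of CG1827, while the peak 23 bp upstream of RpL31 had a signal of 217. At RpL28 the weaker peak, with a signal of 110, lay 113 bp from the TSS of eIF1, an initiation factor gene. RpL24 instead had a second summit of signal 114 inside its own span, 525 bp downstream of its TSS.

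Within replicates, every one of the 52 genes had an own-promoter entry in each list. So did nearly all of the 2905 protein-coding genes with an own-promoter IDR peak, with 2883, 2891 and 2889 in replicates 1, 2 and 3. Among the strongest 4351 there were 48, 47 and 50 of the 52, against 2521, 2601 and 2555 of the 2905. Of the 52, 43 had such a strong entry in all 3 replicates, 7 in 2 and 2 in 1. The median rank of the own-promoter entries of the 52 genes was 1115 in replicate 1, 1481.5 in replicate 2 and 1013.5 in replicate 3. The same medians were 1507, 2403 and 1930 for 15 initiation factor genes, where replicate 2 was again the lowest in rank, 1610, 1684 and 2245.5 for mitochondrial ribosomal protein genes, and 1910, 1916 and 1932 over all protein-coding genes with an own-promoter IDR peak. Replicate 3 had the best rank of the 3 for 33 of the 52 genes, and replicate 2 the worst for 34. For 49 of the 52 the replicates' summits lay within 100 bp of the IDR summit in all 3 lists, and for RpL18, RpL7A and sta in 2. The split by number of replicates, the best and worst ranks and the matches within 100 bp were not computed over the 2905 genes. The IDR list was made from these same replicates, so their agreement is not independent support and describes the list.

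Among own-promoter IDR peaks matched within 100 bp in all 3 replicates, the ranks of RpL27A, RpL34a, RpS19a and RpS27A varied most, by the SD of log10 rank. RpL27A had ranks of 1715, 8331 and 1412 in replicates 1, 2 and 3, with a stronger entry at its promoter at rank 4353 in replicate 2. RpL34a had 10325, 2231 and 2093, but a stronger entry at its promoter in replicate 1 had rank 1976, close to those of the other replicates. RpS27A, which is made as a fusion with ubiquitin, had 4527, 1961 and 1075. RpS19a, whose peak lies nearer to Rok, had 4524, 11619 and 2773. By the strongest own-promoter entry of each replicate, wherever its summit lay within 500 bp, the most variable genes with an own-promoter IDR summit were sta, RpS19a, RpL7A and RpS27A. The ranks of sta were then 1513, 3407 and 9988 in replicates 1, 2 and 3, and those of RpL7A were 2984, 10821 and 2199.

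**Figure D5:**
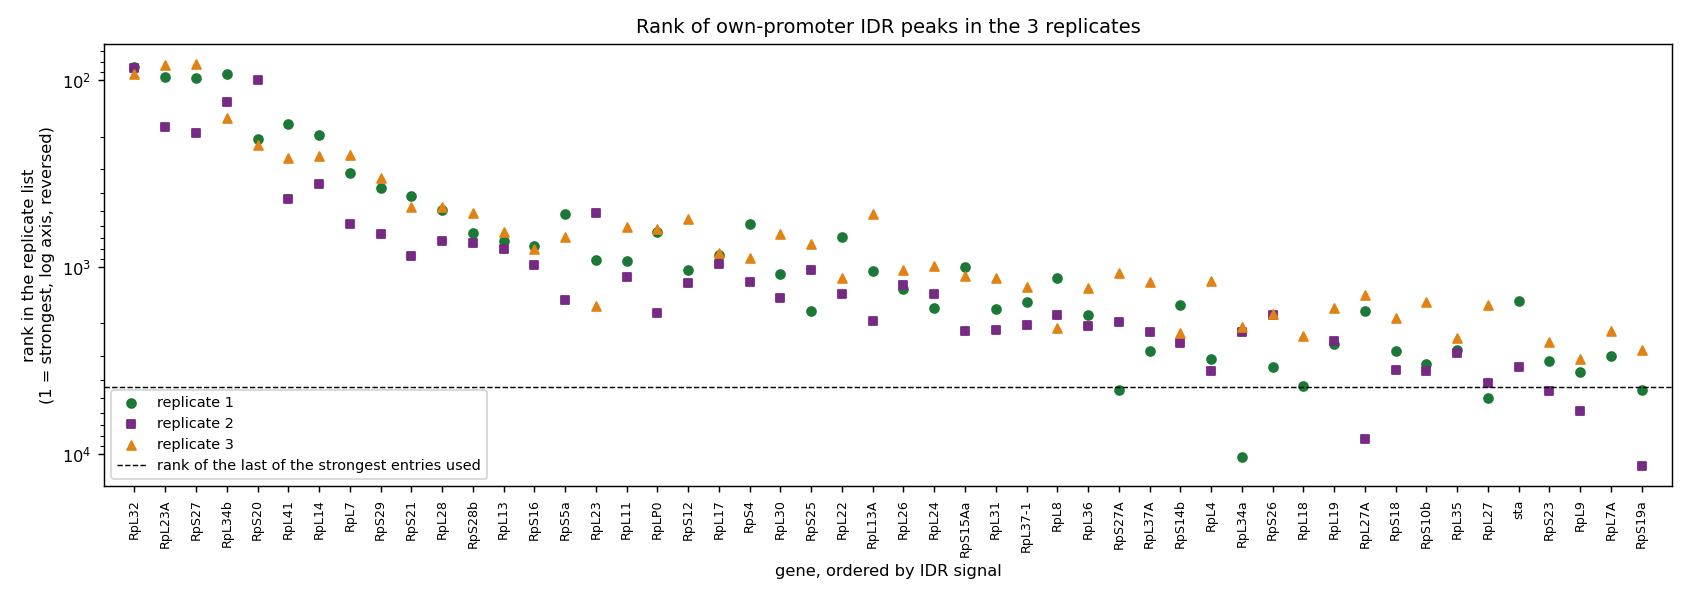
Rank of the own-promoter IDR peak in the list of replicate 1 (circles), 2 (squares) and 3 (triangles) (vertical log axis, reversed so that 1 is at the top) for 50 of the 52 genes in order of IDR signal (horizontal axis); only entries with a summit within 100 bp of the IDR summit are drawn, and the dashed line marks rank 4351. The ranks of RpL32 lie between 85 and 93, and the lowest points are RpS19a at 11619 and RpL34a at 10325.

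The pooled list of 30000 entries, which holds weak peaks and background beside strong ones, had an own-promoter entry for 77 of the 88 (87.5%), against 76.7% of mitochondrial ribosomal protein genes, 52.3% of initiation factor genes and 51.6% of all protein-coding genes. Of the 36 genes with no own-promoter IDR summit, 25 had such an entry, at ranks from 4386 to 24950, and 12 of these 25 were at rank 6000 or better. RpL5, which with RpL11 and the small ribosomal RNA of the large subunit forms a particle on its own, had a pooled signal of 66.6. RpL40, the other ubiquitin fusion, had 53.9. The lowest was RpS3, with 35.7.

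No own-promoter entry was in the pooled list for 11 of the 88 genes, among them RpL10, RpL10Aa, RpL15, RpL21, RpL37-2, RpL38, RpS13, RpS19b, RpS3A and RpS9. The nearest pooled entry was 102497 bp away at RpL38 and 40804 bp away at RpL10. RpL15 and RpL38 lie in pericentric heterochromatin. RpL10, which joins the large subunit late in its assembly, had weak entries in replicates 2 and 3 at ranks 5424 and 6383 and none in replicate 1. RpS9 had entries in every replicate, at ranks 10535, 14416 and 28756, but none in the pooled list. RpL15 had one at rank 4354 in replicate 1 and at 25362 in replicate 2.

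RpS3A stood apart among these. It is the only ribosomal protein gene on chromosome 4, the small heterochromatin-rich chromosome. Its promoter entry had rank 1796 in replicate 2 and rank 1099 in replicate 3, with signals of 67.4 and 100 in those lists. In replicate 1 the nearest entry was 64010 bp away, and in the pooled list 17682 bp away. All of chromosome 4 had few entries in those lists, with 36 in replicate 1 and 31 in the pooled list, against 103 in replicate 2 and 70 in replicate 3. The absence of RpS3A from the IDR list therefore goes with a low number of entries on that whole chromosome, and the part this plays was not tested.

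The set holds 9 pairs of genes that encode the same ribosomal protein. An own-promoter IDR summit was found at both copies in 1 pair, RpL34a and RpL34b, at 1 copy in 7 pairs and at neither in 1 pair, RpL10Aa and RpL10Ab. In all 9 pairs the copy with the stronger or only pooled entry also had the stronger or only entry in every replicate. The pooled list was made from these same replicates, so this is not independent support. RpL34b had a pooled signal of 804 and RpL34a of 178. RpS5a had 331 and RpS5b, known for its expression in the ovary, 72.3. RpS28b had 374 and RpS28a 103. The gap was smaller in the other pairs with 2 entries: RpS15Aa had 242 and RpS15Ab 67.9, RpS10b had 159 and RpS10a 72.0, and RpS14b had 182 and RpS14a 82.7. RpL37-1 had 216, RpS19a 111 and RpL10Ab 94.6, while RpL37-2, RpS19b, known for its expression in the germ line, and RpL10Aa had no entry. Where copies are near-identical in sequence, reads may be placed at either, and the values of RpS14a and RpS14b are uncertain for this reason.

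The weaker copy was a gene without introns in 5 of the 9 pairs, and the stronger copy in 0. Over the whole set, the 6 genes without an intron, RpL10Aa, RpL37-2, RpLP2, RpS10a, RpS15Ab and RpS28a, had no own-promoter IDR summit, against 52 of 82 genes with introns (63.4%). Over all protein-coding genes the shares were 9.67% without and 22.8% with introns. Introns of ribosomal protein genes are also known as hosts of small nucleolar RNAs. A snoRNA gene was annotated in 29 of the 88 spans (33.0%), against 0.601% of all protein-coding genes. Own-promoter summits were found at 65.5% of these hosts and at 55.9% of the other ribosomal protein genes, with median signals of 312 and 216. Over all protein-coding genes the shares were 51.2% of hosts and 20.6% of the others, with median signals of 264 and 188. These hosts include the set itself: 29 of the 84 hosts were ribosomal protein genes, and 19 of the 43 hosts with a summit.

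Genes of the set on the X chromosome were bound most often. All 15 had a summit in the span or within 1 kb, a rule for which the share over all genes on X was not computed. At their own promoter 13 had one, and the other 2 were RpS6 and RpS14a. RpS6 was counted through a summit 15 bp from the TSS of bys and RpS14a through the peak of RpS14b. The own-promoter summit of RpS19a lay 19 bp from the TSS of Rok. Over all protein-coding genes on X the own-promoter share was 21.7%. On the autosomal arms the own-promoter counts were 10 of 17 on 2L, 9 of 19 on 2R, 9 of 14 on 3L and 11 of 22 on 3R, where the shares over all protein-coding genes ranged from 19.5% to 22.7%. The higher own-promoter share on X was therefore not seen over all genes of that chromosome.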

How the data were processed

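Peak lists of Antp-eGFP ChIP-seq from 3 biological replicates of 1 group of embryos were used, in dm6 coordinates. The authors deposited, per the file descriptions that came with the samples, a ranked list of peaks and background of 30000 entries for each replicate and for the pooled replicates, called against a control, and a list of 4351 peaks kept after IDR. Each entry's signal value is the one the authors deposited from their caller; no source used here names the caller, the aligner or the IDR threshold. Read depth is unknown, so no counting error could be given, and the number of entries limits precision. Lists in dm3 coordinates were not used. The antibody label names Antp while the description names anti-GFP; the description was followed.

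Gene spans and TSSs came from the Ensembl release 115 annotation and sequences from the RefSeq dm6 assembly. A gene was counted by a summit in its span or within 1 kb (bound), within 500 bp of an annotated TSS of its own (own promoter), or by the TSS nearest to a summit. For replicates the strongest 4351 entries of each were used. Replicate values of an IDR peak come from the nearest replicate summit within 100 bp. Motifs were matched as exact letters. Genes were named by rule: the 12 strongest and 3 weakest own-promoter peaks, the genes next below the IDR threshold, up to 5 of the longest genes with no pooled entry, genes with other TSSs nearest or several summits, pairs, the stalk and the 4 with the most variable ranks; further genes, among them RpS3, RpL5, RpL40, RpL38, RpS12 and RpL22, were chosen after their values were seen. The members and lists were chosen with earlier results of these data known. Functions were tested on simulated data. Python 3.11.15, pandas 2.3.3, numpy 2.4.6 and matplotlib 3.10.9 were used. A few single-gene results are not reported here; the genes stay in the counts.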

Additional observations from a re-analysis of the deposited data

How the results depend on the processing

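Of 33 alternative values over 9 results, 25 stayed within 1.5 times the count, or within 1 SD between replicates of the median, as reported. The others were these. Without the 1 kb extension, 17 genes were bound in place of 59. From the 5′ end of the gene only, the median summit distance was -29 bp. The median of the mean signal over the replicates' own lists was 91.7 in place of 276, since these lists have lower values throughout; leaving out 1 replicate at a time gave 77.6 to 94.3 (91.6 without replicate 2). At any annotated TSS, 69 genes had an initiator in place of 41. Within 100 bp of the summit, 19 of the 52 own-promoter genes had a DRE or motif 1, in place of 37 of 88 in the promoter window. Where a count is lower, fewer bases or genes were searched by construction; for the distance the cause was not tested.

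Leaving out 1 replicate at a time, 45 to 49 genes had an own-promoter entry among the strongest of both others. By the same entries in the span or within 1 kb, 54 to 56 genes were bound. Shares over all protein-coding genes were not computed for these counts. With every replicate kept, the own-promoter count was 44, against 15.1% of all protein-coding genes. Own-promoter IDR summits within 250 bp were found at 49 genes, against 16.8% of all protein-coding genes, and within 1000 bp at 55, against 23.8%. Among the 2175 strongest IDR peaks there were 40, against 11.7%. The count with the own TSS nearest to the summit was chosen after the data had been seen. No paired analysis was possible because there is only 1 group. Depth is unknown, and a missing entry says only that no peak was called at this depth.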
